A study of Mus musculus with 8 samples.

Results

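*Sorcs2* and 4 related genes, *Sort1*, *Sorl1*, *Sorcs1* and *Sorcs3*, encode the sorting receptors that carry a VPS10 domain, and all 5 were found by gene symbol among the 53465 genes of an RNA-seq table of mouse heart ventricles at embryonic day 9.5. *Sorcs2* was picked because its fall in the mutant was the most consistent of all genes, and the other 4 genes were added because they belong to the same family. The genotype difference in *Sorcs2* is therefore described here without a test. Of the 5 genes, 4 passed the filter on low counts, and *Sorcs3* did not.

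The samples were 4 WT ventricles and 4 ventricles of the genotype labelled Nrg-1flox;Tie2-Cre (the mutant), in which a floxed neuregulin gene is deleted by a Cre recombinase under the *Tie2* promoter. This promoter is active in endothelial cells, including the endocardium that lines the ventricle, and also in blood cell lineages. All samples are polyadenylated RNA sequenced as single reads of 60 bases. The labels give neither strain, litter nor sex, nor whether embryos were pooled or WT embryos carried a floxed or Cre allele, so p-values measure only the spread between these samples. Total counts ranged from 11852372 to 14360323 in WT and from 12430368 to 14223860 in the mutant.

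VPS10 receptors are transmembrane proteins that move other proteins between the Golgi, endosomes and the cell surface. Their luminal VPS10 domain binds cargo such as the precursors of neurotrophins, and their cytoplasmic tails are read by adaptor proteins and by retromer, a complex that returns receptors from endosomes. Sortilin (*Sort1*) and SorLA (*Sorl1*) work mainly inside the cell, where SorLA sorts the amyloid precursor protein, and SorCS2 pairs with the neurotrophin receptor Ngfr on neurons. The family is best studied in the nervous system.

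The deleted gene was examined first. *Nrg1* counts were 61, 59, 71 and 72 in the mutant and 156, 131, 121 and 173 in WT. The groups did not overlap, and the log2 fold change was -1.07 (SE 0.14, adjusted p = 0.00268). Adjusted p-values come from the quasi-likelihood test of edgeR and were adjusted by Benjamini-Hochberg across the whole table, unless another tool is named. Whole ventricles include cells that the deletion does not reach, and the labels do not name the floxed exons.

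*Sorcs2* covers 380960 bases of chromosome 5 in GRCm38 (36017180 to 36398139, minus strand). The annotated transcript with most coding sequence counts 27 exons and 3477 coding bases. Family members resemble each other, and a read that fits 2 genes would be divided between them, so the annotated transcripts were searched for shared stretches. No stretch of 60 bases, the length of a read, was shared by *Sorcs2* with another gene on either strand (0 of 8740 stretches). The longest identical run between *Sorcs2* and *Sorcs3* was 17 bases and that between *Sorcs2* and *Sort1* 16 bases. These runs are printed here because they are the places where *Sorcs2* comes closest to these 2 receptors, with the shared run in capitals and 6 flanking bases on each side, 5′ to 3′ in the direction of the transcript (GENCODE M21).
*Sorcs2*, run shared with *Sorcs3*: ctggaaAGTTCTCTGTGGAGGTCctcaga
*Sorcs3*, same run: actgagAGTTCTCTGTGGAGGTCagtaga
*Sorcs2*, run shared with *Sort1*: gactccGACTTCCTCTGTGACTacgggt
*Sort1*, same run: ctggagGACTTCCTCTGTGACTttggct
All 4 runs are coding and each crosses an exon junction, so that their ends lie on both sides of an intron. The *Sorcs2* run of 17 bases joins exons 2 and 3 (chr5:36153920-36229158, minus strand), and its *Sorcs3* counterpart also joins exons 2 and 3 (chr19:48398750-48487392, plus strand). The *Sorcs2* run of 16 bases joins exons 16 and 17 (chr5:36037530-36038131, minus strand), and its *Sort1* counterpart joins exons 15 and 16 (chr3:108348747-108351676, plus strand). *Sorcs1* and *Sorcs3* had the longest run of any pair, 32 bases. Between any 2 of the 5 genes, therefore, no full read could be shared.

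Genes on the opposite strand were examined as well, because the library kit named in the labels is not a stranded one and the use of strand in counting was not given in the sources used here. *Psapl1* lies within *Sorcs2* on the opposite strand and shares no exonic base with it, and its count was 0 in all 8 samples. Antisense genes shared 3.68% of the 60-base stretches of *Sort1* (*Gm12523*, 0 to 12 counts per sample), 0.622% of those of *Sorl1* (*Gm16214*, 0 to 2 counts) and 1.17% of those of *Sorcs1* (*Gm45352*, 0 counts in each sample). Reads of these short stretches cannot be assigned to a strand.

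In WT ventricles the receptors differed widely in level. Per kilobase of exon, *Sort1* had 33.1 ± 1.29 CPM (TMM-normalised counts scaled to library size, SD, n = 4), *Sorl1* 8.71 ± 1.13, *Sorcs2* 3.47 ± 0.200, *Sorcs1* 0.454 ± 0.0441 and *Sorcs3* 0.110 ± 0.0477. The order was the same in the mutant, with 27.7 ± 2.76 for *Sort1*, 4.66 ± 0.875 for *Sorl1*, 1.33 ± 0.0404 for *Sorcs2*, 0.558 ± 0.152 for *Sorcs1* and 0.0361 ± 0.0132 for *Sorcs3*. No gene overlapped the next one in this order within either genotype. Sortilin thus made up 72.3% ± 1.76 of the summed per-kilobase level of the family in WT and 80.8% ± 1.23 in the mutant, whereas the share of *Sorcs2* was 7.57% ± 0.444 and 3.90% ± 0.299 (SD, n = 4 each). The shares sum to the whole, so they move together.

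*Sorcs2*, the gene for SorCS2, was lower in each mutant sample than in any WT sample. Its counts were 133, 166, 167 and 141 in the mutant (replicates 1 to 4) and 424, 420, 382 and 419 in WT. After normalisation these were 11.3, 12.0, 12.0 and 11.6 CPM in the mutant and 32.4, 30.1, 31.4 and 28.3 CPM in WT. The mutant mean was 38.4% of the WT mean, a log2 fold change of -1.38 (SE 0.07). In whole ventricles, fewer cells of a type and less RNA per cell cannot be told apart.

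The samples of each genotype lay close together. The coefficient of variation of *Sorcs2* CPM was 3.03% in the mutant, where counting alone would give about 8.12%, and 5.75% in WT, where counting would give about 4.93%. In the fit across 14451 genes *Sorcs2* had the largest F statistic (343), followed among falling genes by *Cdo1* (271), which encodes cysteine dioxygenase, and *Mid2* (169), which encodes a microtubule-associated ubiquitin ligase. These values are what the choice of *Sorcs2* rests on. Across all genes tested, 3.5% were called lower at a false discovery rate (FDR) under 0.05, 5.11% were called higher, and 9.45% were lower in the mutant with no overlap between genotypes.

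**Figure D1:**
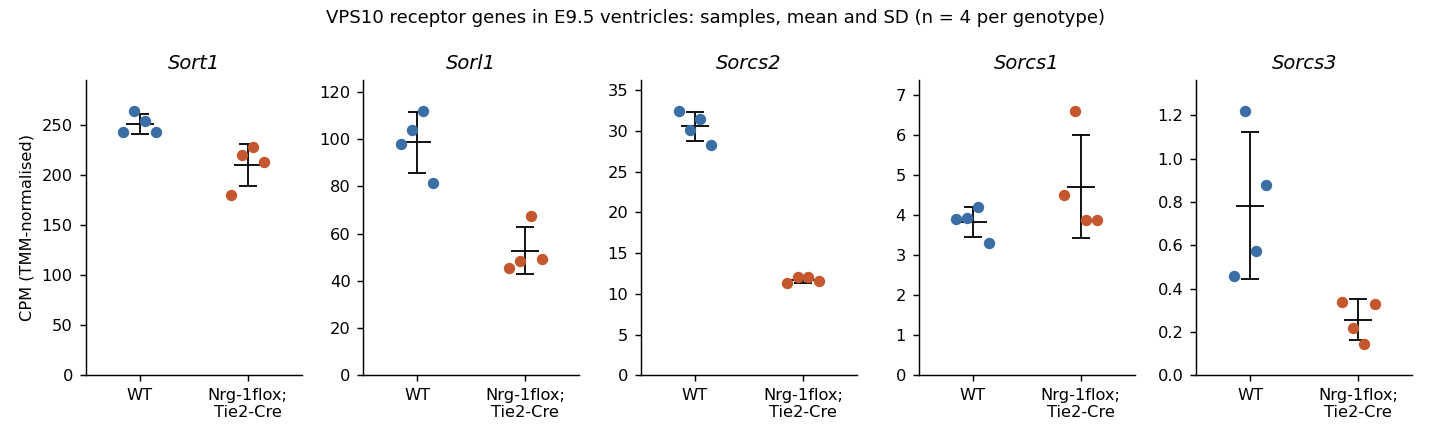
Normalised counts (CPM, vertical axes from 0, scaled per gene) of the 5 receptor genes in WT and Nrg-1flox;Tie2-Cre ventricles. Points are samples and bars are the mean and SD (n = 4 per genotype). *Sorcs2* falls from 28.3 to 32.4 CPM in WT to 11.3 to 12.0 CPM in the mutant, *Sorl1* and *Sort1* are also separated by genotype, and *Sorcs1* overlaps.

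*Sorl1*, the gene for SorLA, fell in the mutant as well. The gene is on chromosome 9 (41964720 to 42124297, minus strand) and has 48 exons in its longest coding transcript. *Sorl1* levels were 45.6, 48.6, 67.4 and 49.4 CPM in the mutant and 97.8, 103.7, 111.7 and 81.4 CPM in WT. The groups did not overlap, although mutant replicate 3 stood above the other mutant samples and WT replicate 4 below the other WT samples. The log2 fold change was -0.90 (SE 0.13, 95% interval -1.20 to -0.60, adjusted p = 0.004), and the mutant mean was 53.5% of the WT mean. Among the 3 tested relatives of *Sorcs2*, *Sorl1* was the one called lower by edgeR's quasi-likelihood test, against 3.5% of all genes. Its coefficient of variation, 18.8% in the mutant and 13.01% in WT, was above the 3.82% and 2.75% that counting alone would give.

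*Sort1*, the gene for sortilin on chromosome 3 (108284082 to 108361511, plus strand), differed less. Its levels were 180.1, 219.6, 227.9 and 212.5 CPM in the mutant and 243.2, 263.4, 253.7 and 243.1 CPM in WT. Each mutant sample was below each WT sample, and mutant replicate 1 was the lowest. The log2 fold change of -0.26 (SE 0.07, 95% interval -0.42 to -0.09) did not pass the threshold (adjusted p = 0.0627). With DESeq2 it passed (log2 fold change -0.25, adjusted p = 0.0212). Without mutant replicate 1 edgeR gave -0.19, a smaller difference that passed (adjusted p = 0.0208). That fit called 2523 of 14630 genes, against 1245 of 14451 with all samples.

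The levels of SorLA and sortilin were set against each other within samples, a ratio chosen after the levels were seen and given without a test. The log2 ratio of *Sorl1* to *Sort1* CPM was -1.98, -2.18, -1.76 and -2.11 in the mutant and -1.31, -1.35, -1.18 and -1.58 in WT. The ratio was lower in each mutant sample than in any WT sample, by a mean of -0.65.

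*Sorcs1* and *Sorcs3*, neighbours on chromosome 19, were the least abundant receptors. *Sorcs1* (minus strand, from 50143299 to 50678646) had 4.49, 6.59, 3.88 and 3.87 CPM in the mutant and 3.90, 3.94, 4.19 and 3.31 CPM in WT. The genotypes overlapped, mutant replicate 2 was the highest sample, and the log2 fold change was 0.30 (SE 0.20, 95% interval -0.15 to 0.75, adjusted p = 0.392). Without mutant replicate 2 it was 0.10 (adjusted p = 0.756 from edgeR). *Sorcs1* had 47 to 91 counts per sample.

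*Sorcs3* (plus strand, from 48206025 to 48805505) had 4, 3, 2 and 4 counts in the mutant and 6, 17, 7 and 13 in WT. The counts did not overlap, but they were too few to pass the filter. Over the summed counts, 13 and 43, the mutant level was 0.316 of the WT level (95% exact interval 0.156 to 0.599, which covers counting error only). Without a filter on low counts edgeR's quasi-likelihood test gave a log2 fold change of -1.60 (adjusted p = 0.0976).

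**Figure D2:**
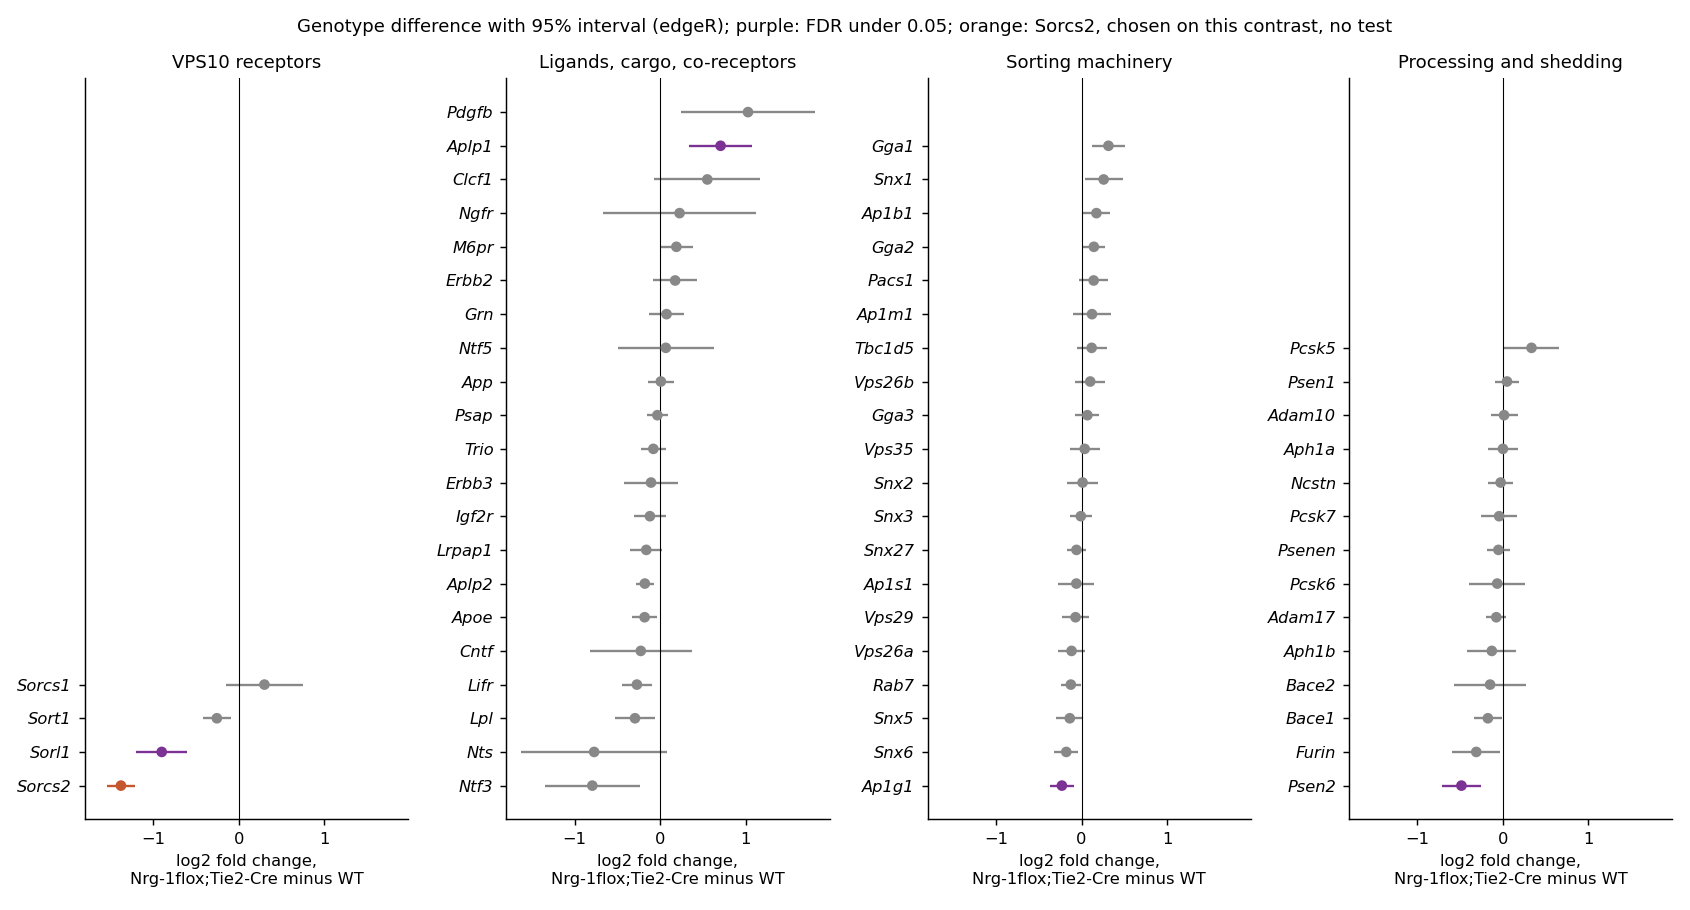
Log2 fold change (mutant minus WT, horizontal axes) with its 95% interval for each tested gene of the VPS10 receptors and of the 3 lists of related genes. Purple marks FDR under 0.05, and orange marks *Sorcs2*, which was chosen on this contrast and carries no test. *Sorcs2* is at -1.38 and *Sorl1* at -0.90. The sorting machinery runs from -0.23 to 0.31, the processing and shedding genes from -0.49 to 0.33, and the ligands and co-receptors from -0.79 to 1.03.

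The genes that VPS10 receptors work with were read from lists. The 32 ligands, cargo proteins and co-receptors include neurotrophins and their receptors, neurotensin, progranulin, amyloid precursor family members and the neuregulin receptors *Erbb2* and *Erbb3*. Of the 21 that passed the filter, 1 was called by edgeR, against 8.62% of all genes, and the median log2 fold change of the list was -0.08, against -0.0014 over all genes tested. DESeq2 called 5 of the 21, against 12.8% of the 13876 genes to which it gave an adjusted p, and limma-voom 3, against 8.3% of all genes. *Aplp1*, which encodes an amyloid precursor-like protein, rose from 26.9, 26.3, 19.3 and 18.3 CPM in WT to 38.9, 46.1, 30.1 and 33.1 CPM in the mutant (log2 fold change 0.71, SE 0.16, adjusted p = 0.0284). It lost the call without mutant replicate 4 (adjusted p = 0.0509), WT replicate 3 (0.0883) or WT replicate 4 (0.0868).

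*Ngfr*, the receptor that SorCS2 pairs with on neurons, had 16, 19, 51 and 12 counts in the mutant and 15, 23, 23 and 25 in WT, with a log2 fold change of 0.23 (SE 0.40, adjusted p = 0.77). Mutant replicate 3, the mutant sample highest in *Sorl1*, was the highest in *Ngfr*, and without it the log2 fold change was -0.36 (adjusted p = 0.484). *Bdnf*, which encodes a neurotrophin, had 1 to 7 counts per sample and its receptor gene *Ntrk2* 2 to 9. Both were below the filter, and without a filter edgeR gave log2 fold changes of 0.59 for *Bdnf* (adjusted p = 0.699) and 0.49 for *Ntrk2* (adjusted p = 0.707). The neurotrophin genes *Ntf3* and *Ntf5*, named after their values were seen, passed the filter. *Ntf3* had 4.802 ± 0.344 CPM in WT and 2.78 ± 1.15 in the mutant (SD, n = 4), and the groups overlapped (log2 fold change -0.79, SE 0.25, adjusted p = 0.0793 from edgeR). *Ntf5* had 1.88 ± 0.143 CPM in WT and 1.96 ± 0.603 in the mutant (adjusted p = 0.904 from edgeR).

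The sorting machinery comprised 20 genes. They were those of retromer, sorting nexins, GGA adaptors and the AP-1 adaptor complex, with *Pacs1*, *Rab7* and *Tbc1d5*. All 20 were tested. Of these, 1 was called, against 8.62% of all genes. It was *Ap1g1*, which encodes the gamma subunit of AP-1. It had 95.2, 109.5, 102.4 and 93.7 CPM in the mutant and 115.9, 120.0, 119.2 and 115.2 CPM in WT, a log2 fold change of -0.23 (SE 0.06, adjusted p = 0.0484). The call was lost in 6 of 8 fits that left out 1 sample, those without mutant replicate 3 or 4 or any WT sample (adjusted p from 0.0841 to 0.126). *Vps35*, the cargo-binding core of retromer, had a log2 fold change of 0.04 (95% interval -0.14 to 0.21, adjusted p = 0.816), and the median of the list was 0.02.

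The next list held 14 genes for proteases, or for subunits of the protease complex gamma-secretase, that trim or shed VPS10 receptors or cut their cargo. Of these, 1 was called, *Psen2*, against 8.62% of all genes. It encodes a presenilin, the catalytic subunit of gamma-secretase, and had 9.41, 10.6, 9.13 and 11.04 CPM in the mutant against 13.7, 13.3, 15.5 and 13.9 CPM in WT. The log2 fold change was -0.49 (SE 0.10, adjusted p = 0.0195), and the groups did not overlap. The call was lost without mutant replicate 3 or WT replicate 1, 3 or 4 (adjusted p from 0.0548 to 0.0666). *Furin*, the convertase that removes the propeptides of these receptors, had a log2 fold change of -0.31 (SE 0.13, adjusted p = 0.158). *Furin* was lowest in mutant replicate 1, at 110.1 CPM, and without that sample the value was -0.18 (adjusted p = 0.0254). The fit without that sample called 2523 of 14630 genes, against 1245 of 14451 with all samples.

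**Figure D3:**
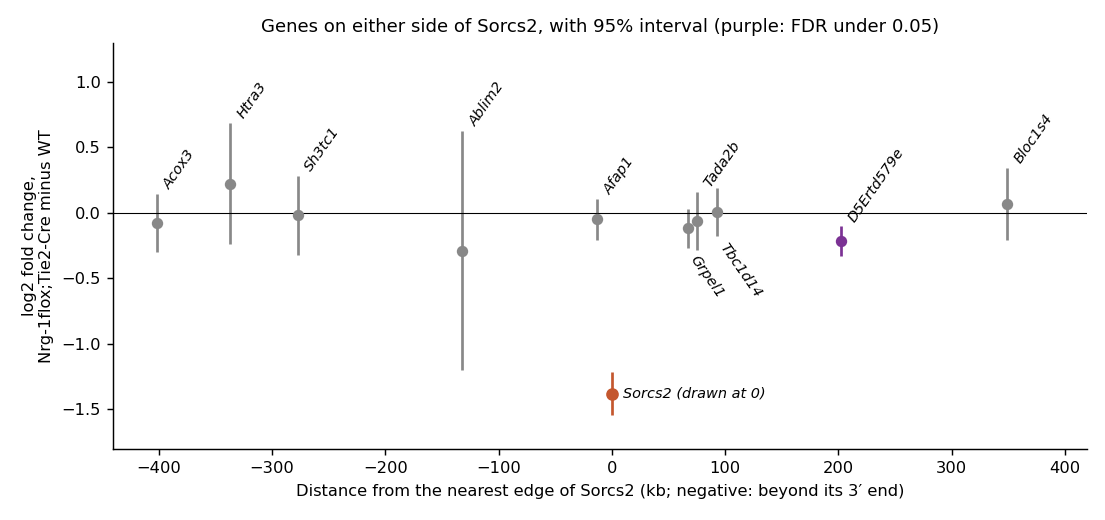
Log2 fold change with its 95% interval (vertical axis) of the 5 nearest tested protein-coding genes on each side of *Sorcs2*, against distance from the nearest edge of *Sorcs2* in kilobases (horizontal axis, negative beyond the 3′ end). *Sorcs2* is drawn at 0 at -1.38, and its neighbours lie between -0.29 and 0.22.

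The difference at *Sorcs2* was set beside the genes around it. The 10 nearest tested protein-coding genes lay from 13.3 to 401.8 kb from its edges. *Afap1*, the nearest, which encodes an actin filament-associated protein, had a log2 fold change of -0.05 (95% interval -0.20 to 0.11). *Grpel1*, the nearest beyond the 5′ end at 66.9 kb, had -0.12 (95% interval -0.26 to 0.03). Of the 10 neighbours, 1 was called (8.62% of all genes), *D5Ertd579e* at 202.3 kb, with 96.1 CPM in the mutant and 111.6 CPM in WT on average (log2 fold change -0.22, SE 0.05, adjusted p = 0.0295). Its call held in the fit without mutant replicate 1 (adjusted p = 0.013), which called 2523 of 14630 genes. The call was lost in the 7 fits that each left out another sample (adjusted p from 0.0578 to 0.0919).

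The genes whose profile over the 8 samples was closest to that of *Sorcs2* were *Cdo1*, *Scn4b*, *Gm43719*, *Thbs4* and *Hsbp1l1*. Likeness was the root mean square difference of log2 CPM after each gene was centred on its own mean, and it ran from 0.138 for *Cdo1* to 0.189 for *Hsbp1l1*. *Scn4b*, which encodes a beta subunit of sodium channels, had 4.41, 5.14, 4.60 and 4.53 CPM in the mutant and 12.2, 11.03, 9.53 and 12.6 CPM in WT. *Thbs4*, which encodes the matrix protein thrombospondin 4, had a mean of 62.0 CPM in the mutant and 174.1 CPM in WT. The genotype step makes up most of each of these profiles, and they were chosen for it.

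Cell composition was read from marker lists. Erythroid genes moved with genotype, with 10 of 10 higher in the mutant (5.11% of all genes) and a summed level of 17535 to 62184 CPM against 6069 to 7322 CPM in WT. Hemoglobin genes took 6.26%, 1.93%, 3.80% and 3.89% of counts in the mutant and 0.722% ± 0.0609 in WT (SD, n = 4). In the same order of mutant samples, replicates 1 to 4, *Sorl1* had 45.6, 48.6, 67.4 and 49.4 CPM. *Sort1* had 180.1, 219.6, 227.9 and 212.5 CPM in these samples. With hemoglobin and mitochondrial genes removed before normalisation, the log2 fold changes were -1.37 for *Sorcs2*, -0.89 for *Sorl1* and -0.25 for *Sort1*.

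**Figure D4:**
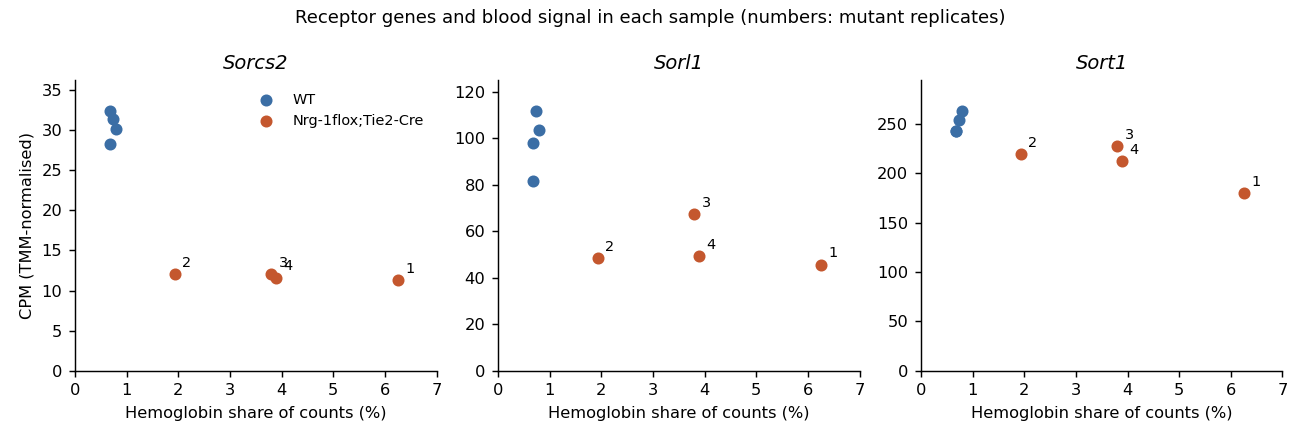
CPM of *Sorcs2*, *Sorl1* and *Sort1* (vertical axes from 0) against the hemoglobin share of all counts (horizontal axis, percent) in each sample, with mutant replicates numbered. The mutant samples run from 1.93% to 6.26% hemoglobin and WT samples lie near 0.722%, and the small spread of *Sorcs2* among mutant samples is part of what it was chosen for.

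In the other marker lists, called genes were set against the 3.5% of all genes called lower and the 5.11% called higher. Of 8 outflow and second heart field genes, 5 were lower and the summed level was 229.6 to 266.8 CPM in the mutant against 337.5 to 363.3 CPM in WT. *Fgf10*, a growth factor of the second heart field, was one of them (log2 fold change -1.07, adjusted p = 0.0148), and *Rspo3*, a Wnt agonist, another (-0.88, adjusted p = 0.00728). Endocardial and endothelial genes summed to 791.0 to 866.6 CPM in the mutant against 898.2 to 986.0 CPM in WT, and 1 of 10, the angiopoietin receptor gene *Tek*, was lower (-0.34, adjusted p = 0.031). Of these 10 genes, 5 were lower at an unadjusted p under 0.05 (11.9% of all genes), and DESeq2 called 2 lower (5.39%). Of 8 epicardial genes 2 were higher, *Wt1* and *Tbx18*, with sums of 302.5 to 504.8 CPM against 202.5 to 267.9 CPM. Macrophage genes summed to 8.65 to 16.1 CPM against 5.18 to 5.52 CPM, with 2 of 8 tested and *Csf1r* higher. The part of these cell types in the differences of *Sorcs2* and *Sorl1* was not tested.

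The cardiomyocyte list, which defines the labelled tissue, was at 32891 to 35552 CPM in the mutant and 34415 to 36528 CPM in WT. By edgeR 0 of its 10 genes were called, 2 were lower at an unadjusted p under 0.05 (11.9% of all genes), DESeq2 called 2 lower (5.39%) and limma-voom 0 (3.61%), and the median log2 fold change was -0.06. Genes of neural crest and neural cells, the cells in which VPS10 receptors are best known, summed to 211.7 to 284.6 CPM in the mutant and 263.0 to 291.5 CPM in WT. Of the 10 genes 5 were tested, and edgeR called 0 of them, with 0 at an unadjusted p under 0.05 (25% of all genes in either direction) and 0 called by DESeq2 or limma-voom. The 8 endoderm and liver genes summed to at most 7.12 CPM in any sample, and none passed the filter.

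**Figure D5:**
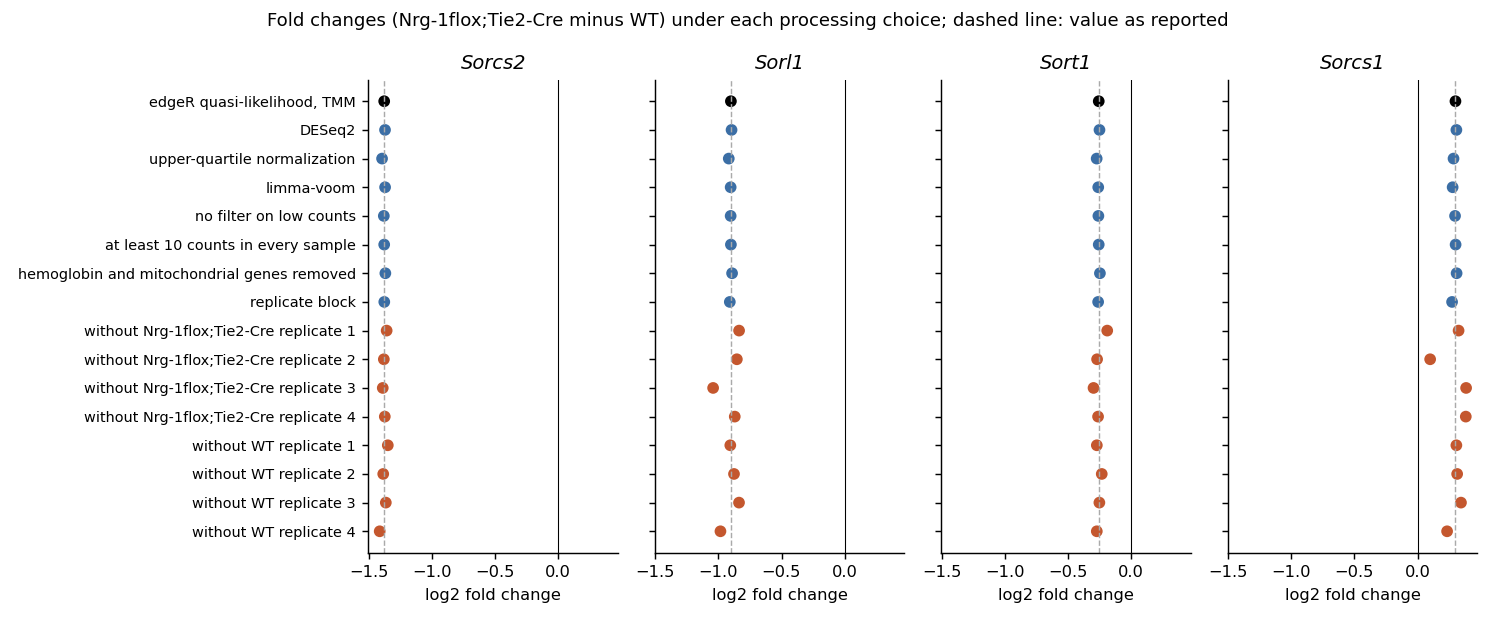
Log2 fold change (mutant minus WT, horizontal axes) of the 4 tested receptor genes under each processing choice, with the value as reported in black and as a dashed line, other tools and settings in blue, and fits that leave out 1 sample in orange. *Sorcs2* stays between -1.41 and -1.35, and *Sorl1* between -1.04 and -0.84. *Sorcs2* was chosen for a consistent fall, so its narrow range is part of that choice.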

How the data were processed

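Polyadenylated RNA of 8 ventricle samples (4 per genotype, 200 ng of total RNA per library) was sequenced in single reads. The authors deposited expected counts per gene, estimated reads that are not scaled for library size or gene length. The submitters' processing notes name cutadapt, RSEM 1.3.1 and GRCm38. The aligner is not given in the sources used here. Between 15.5% and 16.5% of the values in a sample are not whole, and expected counts were rounded for the tests.

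Symbols were taken from a table of gene names (53274 of 53465 genes). Genes were tested with edgeR 4.0.16 in R 4.3.3 (TMM normalization, filterByExpr by genotype, 14451 genes kept, quasi-likelihood test, Benjamini-Hochberg adjustment across the whole table, genes called at an FDR under 0.05). SE was taken as the absolute log2 fold change over the root of F. CPM were divided by the union of exon lengths in GENCODE M21 (GRCm38) to compare genes, and a pseudocount of 0.5 CPM was added for the likeness measure. Exon positions and shared stretches were computed with Python 3.11.15. The fits were tested on simulated data.

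The members and gene lists were chosen with earlier results of these data known. Named were the deleted gene, the 5 receptors, called genes of each list (up to 6), 6 partner genes whatever their test (1 of them is not reported here), the 5 tested neighbours on each side and the 5 genes most alike. No 2 replicates agreed within sampling noise (smallest ratio of chi-square to its degrees of freedom, 3.77), and none was merged. This ratio was 3.77 to 6.14 between WT samples. Between mutant samples it was 30.7 to 52.7 in pairs with replicate 1 and 4.67 to 14.5 in the other pairs. Results were recomputed with DESeq2 1.42.0 and with limma-voom (limma 3.58.1), with upper-quartile normalization, with no filter or a minimum of 10 counts in every sample, after hemoglobin and mitochondrial genes were taken out, with a replicate block, and leaving out each sample in turn. There were no other per-sample columns.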

Additional observations from a re-analysis of the deposited data

Results flagged for a closer look

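Of 56 groups of 4 samples examined for a sample far from the rest, 2 had one, where chance gives about 2.8. *Ngfr* was highest in mutant replicate 3, and the gap to the nearest mutant sample was 0.856 of the range (1.36, 1.38, 3.67 and 0.989 CPM in replicates 1 to 4). *D5Ertd579e*, a neighbour of *Sorcs2*, was highest in mutant replicate 4 with a gap of 0.855 of the range (95.4, 94.8, 95.2 and 99.0 CPM).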

How the results depend on the processing

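*Sorcs2* had a log2 fold change between -1.40 and -1.37 under 7 other settings and between -1.41 and -1.35 with 1 sample left out. It was chosen for a consistent fall, so this narrow range is part of that choice. *Sorl1* passed in each of these 15 fits (-0.92 to -0.89, and -1.04 to -0.84 with 1 sample left out). *Sort1* newly passed with DESeq2 (-0.25) and without mutant replicate 1, and ran from -0.30 to -0.19 with 1 sample left out. *Sorcs1* ran from 0.10 to 0.39 and *Sorcs3* from -1.79 to -1.31 with 1 sample left out, and the log2 ratio of *Sorl1* to *Sort1* differed by -0.73 to -0.59. The count of called genes was 1245 of 14451. It ran from 509 (without WT replicate 1) to 2523 of 14630 (without mutant replicate 1), and was 616 with the replicate block. It was 1780 with DESeq2, 1199 with limma-voom, 1289 with upper-quartile normalization and 1247 of 14397 without hemoglobin and mitochondrial genes. With at least 10 counts in every sample it was 1299 of 13174, and without a filter 1157 of 28458. Ligands and co-receptors had 5 called genes with DESeq2, 3 with limma-voom, 2 with upper-quartile normalization, 2 with at least 10 counts in every sample, and 0 to 5 with 1 sample left out. Sorting machinery had 2 with DESeq2, 2 with at least 10 counts in every sample, 0 without a filter, 0 without hemoglobin and mitochondrial genes, 0 with the replicate block, and 0 to 5 with 1 sample left out. Processing and shedding had 0 with the replicate block and 0 to 2 with 1 sample left out. For each list the highest count with 1 sample left out was reached without mutant replicate 1, the fit that called the most genes. With upper-quartile normalization *Tbc1d14* reversed to -0.0100. Leaving out 1 sample reversed the sign in some fits of *Ngfr* (-0.36 to 0.43), *Vps35* (-0.0302 to 0.0877), *Sh3tc1* (-0.157 to 0.0562), *Tada2b* (-0.122 to 0.00575), *Tbc1d14* (-0.0613 to 0.0597) and *Bloc1s4* (-0.0312 to 0.168), none of which passed. The cause was not tested.

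Deviations from the group means correlated at -0.029 on average between samples of the same number and at 0.00977 between others. No pairing by number showed in these means. The labels do not give litter, and a weak effect shared by samples of the same number was not tested. The replicate block left *Sorl1* called. Under it *Psen2*, *Ap1g1* and *D5Ertd579e* were no longer called. Without a filter *Ap1g1* (adjusted p = 0.0816) and *D5Ertd579e* (0.0774) lost their calls in edgeR, and without hemoglobin and mitochondrial genes *Ap1g1* did (0.0573). The limma-voom and block fits were not run for *Sorcs3* or the ratio. Counts under about 20 per sample (*Sorcs3*, *Bdnf*, *Ntrk2*) limit what can be seen for those genes.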
